A study of Equus caballus with 25 samples.

Results

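The 5 genes described here act in prostaglandin metabolism and were measured in the endometrium, the lining of the uterus, of cycling mares. They were PLA2G2A and PLA2G4A, whose products release the fatty acid precursor, PTGS2 and PTGES, which act in synthesis, and HPGD, which acts in breakdown. All probes whose RefSeq transcript belongs to one of these genes were taken, 5 of the 620 genes that could be named on the array, which gave 16 of its 43603 probes: 5 for PLA2G2A, 2 for PLA2G4A, 3 for PTGS2, 5 for PTGES and 1 for HPGD. All 16 were bright enough to be tested, 1 of the PTGS2 probes through day 16 alone.

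Prostaglandins are short-lived lipid signals made from arachidonic acid. Phospholipases A2 cut this fatty acid out of membrane lipids, cyclooxygenases such as the PTGS2 product turn it into prostaglandin H, and terminal synthases such as the PTGES product convert that into a particular prostaglandin, here prostaglandin E. The HPGD product oxidises prostaglandins into inactive forms. In the mare, as in other farm animals, prostaglandin F from the endometrium ends the life of the corpus luteum when no embryo is present.

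Transcervical biopsies were taken from 5 normally cycling Bavarian Warmblood mares at 5 times of the oestrous cycle and hybridised to single-colour (Cy3) Agilent arrays, with 1 array per biopsy and 25 in all. Day 0 was the day of ovulation and is labelled the ovulatory phase. Days 3, 8 and 12 are labelled early, mid and late luteal phase, the period in which the corpus luteum secretes progesterone, and day 16 is labelled as the onset of the ovulatory phase. Each mare gave a biopsy at each of the 5 days, from different cycles; no treatment is stated, and no ages are given in the labels. A biopsy mixes epithelium, glands, stroma, vessels and immune cells, so fewer cells of a type and less RNA per cell cannot be told apart.

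A level is the log2 signal of a probe minus the log2 of the 75th percentile of its array, so that a level of 0 is the brightness of that percentile. Levels of different probes are not comparable with each other. The lowest 75th percentile was 698 and the highest 3701; by day its median was 895 for day 0 and 1559 to 2001 for the others. The share of spots well above background ran from 70.3% to 88.1%, with none saturated. Each gene is described by its brightest probe, and its other probes are given beside it. Differences are the later minus the earlier day on the log2 scale, with the moderated standard error (SE) of a limma model of all 25 arrays, and a change was called at an adjusted p under 0.05 over all 35770 probes tested. The precision is limited by the 5 arrays per day.

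Both phospholipase genes were lower at days 8 and 12 than at day 3 and rose again by day 16, where neither had a called difference from day 0. PTGES moved the other way, lowest at ovulation and highest at day 12, while HPGD was highest at ovulation. PTGS2 had no called difference by its brightest probe. In the F test over the 5 days, 4 of the 5 genes passed, all but PTGS2, against 35.8% of all probes. Over the 10 pairs of days, 18 of 50 tests were called, against 12.7% of such tests over all probes.

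**Figure D1:**
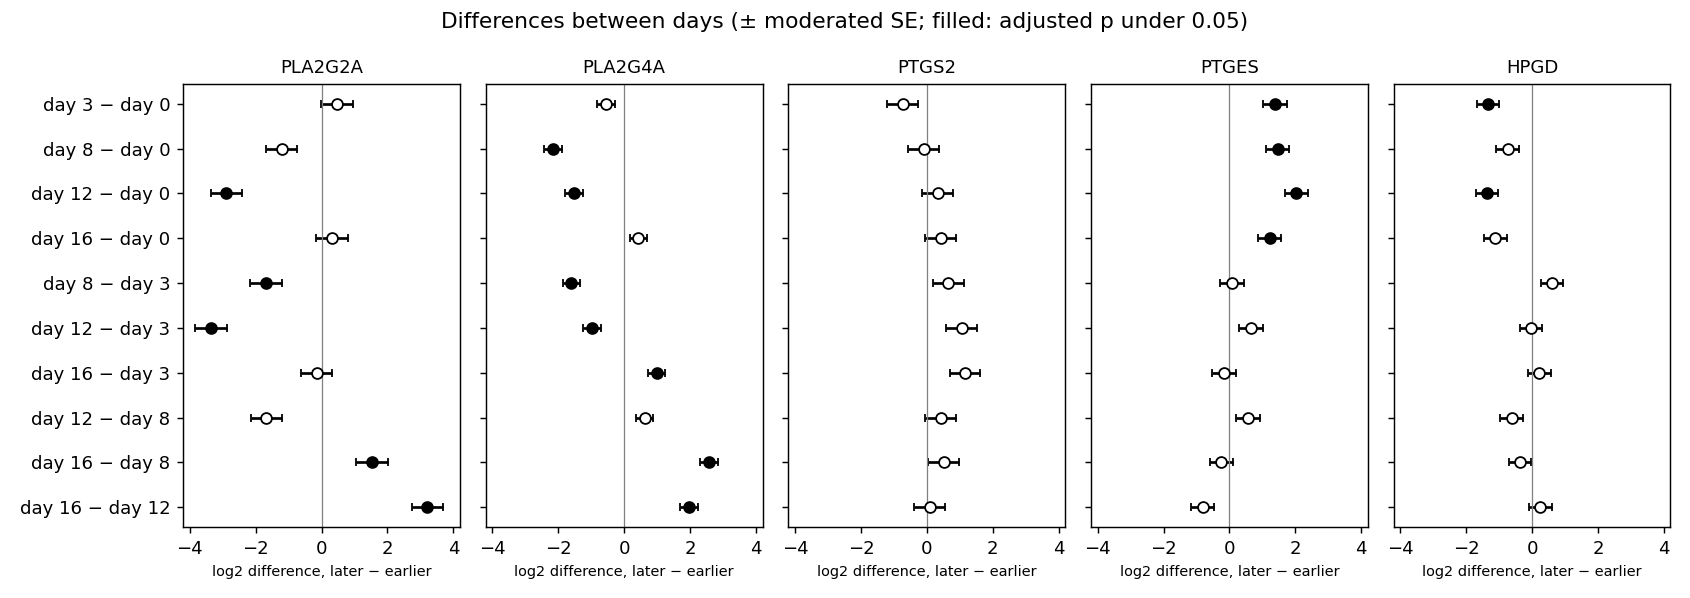
Log2 differences of each gene between all pairs of days, later minus earlier, on the x axis, with bars of 1 moderated SE and filled points for an adjusted p under 0.05. The phospholipase genes have filled points on both sides of 0, PTGES to the right and HPGD to the left, and PTGS2 has none.

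The calls were spread unevenly over the pairs of days. From day 0 to day 12, 4 of the 5 genes were called (17.9% of all probes), PTGES higher and both phospholipase genes and HPGD lower. The median difference of all 5 genes in that pair was −1.37, against 0.028 over all probes. Between days 0 and 3 it was 2 genes, PTGES and HPGD (12.7% of all probes), between days 0 and 8 it was 2, PTGES and PLA2G4A (21.9%), and between days 0 and 16 PTGES alone (4.71%). With mare as a block that call of PTGES was lost (adjusted p = 0.0555) and HPGD was called instead (0.0314). Both phospholipase genes, and no other of the 5, were called between days 3 and 8 (13.8%), days 3 and 12 (17.9%), days 8 and 16 (15.0%) and days 12 and 16 (8.07%). PLA2G4A alone was called between days 3 and 16 (13.8%). Between days 8 and 12 none of the 5 was called, where limma called 1.10% of all probes; at an unadjusted p under 0.05 there were 2, PLA2G2A (lower at day 12) and PLA2G4A (higher), and with mare as a block PLA2G2A was called (0.0442). The 75th percentile scaling left the median of all probes 0.11 lower at day 3 than at day 0 and 0.15 higher at day 12 than at day 3, against 0.0055 and 0.036 after quantile normalization.

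PLA2G2A encodes a secreted phospholipase A2. In mares 1 to 5 its level was 4.66, 5.21, 4.73, 4.30 and 5.00 at day 0 and 5.74, 5.03, 4.83, 4.83 and 5.80 at day 3. At day 8 it was 2.89, 2.78, 4.58, 2.99 and 4.58, and at day 12 it was 1.63, 2.35, 1.36, 0.30 and 3.82. At day 16 it was 4.51, 5.70, 4.89, 5.45 and 4.95. All 5 arrays of day 12 thus lay below every array of days 0, 3 and 16, and mare 5 kept the highest level of that day. At day 8 the mares fell into 3 lower and 2 higher values, mares 3 and 5 being the higher.

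Over days 0, 3, 8, 12 and 16 the mean level of PLA2G2A was 4.78 ± 0.35, 5.25 ± 0.49, 3.56 ± 0.93, 1.89 ± 1.30 and 5.10 ± 0.47 (SD, n = 5). Between days 3 and 12 the transcript fell by 3.36 ± 0.48 (SE), to a 10.2-fold lower signal (adjusted p = 3.28e-05), in all 5 mares. Its level then recovered by 3.21 ± 0.48, or 9.24-fold, between days 12 and 16 (adjusted p = 0.000141), also in all 5 mares. Against day 0, day 12 was 7.40-fold lower (adjusted p = 0.000156). The signal had already dropped by 1.68 ± 0.48 between days 3 and 8 (adjusted p = 0.0192), and was 1.54 ± 0.48 higher at day 16 than at day 8 (adjusted p = 0.0308), both in all 5 mares. Both calls at day 8 were lost on leaving out single arrays. The fall from day 3 was not called without the day 3 array of mare 5 or the day 8 array of mare 1, 2 or 4 (adjusted p = 0.0522 to 0.0603), nor without all arrays of mare 1 (0.140) or mare 2 (0.102). The rise from day 8 to day 16 was not called with the 75th percentile of the array as a covariate (0.0891), with mare and slide in the model (0.0900), without the day 8 array of mare 1, 2 or 4 or the day 16 array of mare 2 or 4 (0.0678 to 0.0905), or without all arrays of mare 1, 2 or 4 (0.0787 to 0.215).

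In descending order of the mean, the days were 3, 16, 0, 8 and 12 for PLA2G2A, and no neighbours in that order passed the test. Day 0 and day 8 differed by 1.21 (adjusted p = 0.0720, and 0.0414 with mare as a block), and days 8 and 12 by 1.67 (adjusted p = 0.0827, and 0.0442 with mare as a block), lower at the later day in all 5 mares in both cases. The fall from day 0 to day 8 was also called without the day 8 array of mare 3 or 5, the day 12 array of mare 4 or 5, or all arrays of mare 5 (adjusted p = 0.0299 to 0.0440). Mares 3 and 5 had the higher values of day 8, so leaving out either of these day 8 arrays enlarges the fall by itself. Without the day 12 array of mare 5, the drop between days 8 and 12 was called (−2.15, adjusted p = 0.0136). That array was the highest of its day, so leaving it out enlarges the drop by itself. The 5 probes gave nearly the same values: from day 3 to day 12 the difference lay between −3.37 and −3.35, and from day 12 to day 16 between 3.19 and 3.22. On the 3 slides with arrays of each, the difference of PLA2G2A from day 3 to day 12 was −4.53 to −2.68, and from day 12 to day 16 it was 2.88 to 5.15.

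**Figure D2:**
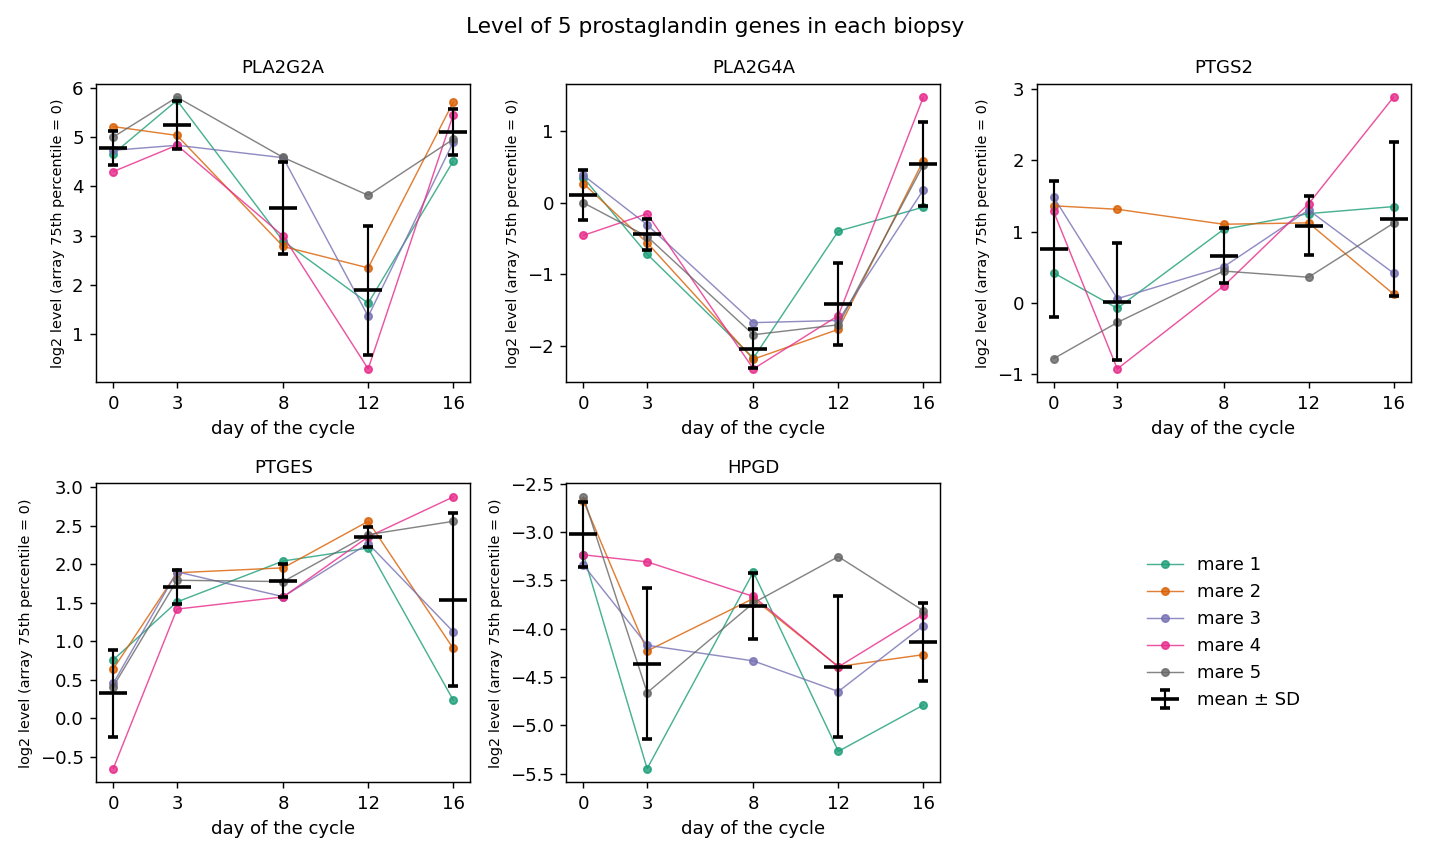
Level of each gene (y axis, log2, the 75th percentile of the array being 0) by day of the cycle (x axis). Coloured lines join the 5 biopsies of a mare, and black marks are the mean ± SD of 5 arrays. The 2 phospholipase genes dip at days 8 and 12, PTGES climbs from day 0 to day 12, and HPGD is highest at day 0.

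PLA2G4A encodes the cytosolic phospholipase A2, which is selective for arachidonic acid. Its level in mares 1 to 5 was 0.35, 0.27, 0.38, −0.45 and 0.00 at day 0, and −0.72, −0.56, −0.31, −0.15 and −0.47 at day 3. At day 8 it was −2.17, −2.19, −1.67, −2.32 and −1.84, below every array of days 0, 3 and 16. At day 12 it was −0.40, −1.77, −1.64, −1.58 and −1.71, mare 1 standing apart from the other 4. At day 16 it was −0.06, 0.59, 0.18, 1.48 and 0.53, with mare 4 highest.

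Over days 0, 3, 8, 12 and 16 the mean of PLA2G4A was 0.11 ± 0.35, −0.44 ± 0.22, −2.04 ± 0.27, −1.42 ± 0.58 and 0.54 ± 0.58 (SD, n = 5). Its trough was thus at day 8, where that of PLA2G2A was at day 12; whether the 2 genes differ in this was not tested. Between days 0 and 8 PLA2G4A fell by 2.15 ± 0.27, to a 4.44-fold lower signal (adjusted p = 5.34e-06), and between days 3 and 8 it fell by 1.60 ± 0.27 (adjusted p = 0.000281), in all 5 mares each time. Day 16 was higher than day 8 by 2.58 ± 0.27, or 5.99-fold (adjusted p = 1.32e-06), and than day 12 by 1.96 ± 0.27 (adjusted p = 6.02e-05), again in all 5 mares. With mare and slide both in the model, the falls from day 0 to day 8 (−1.46, adjusted p = 0.0697) and from day 0 to day 12 (−0.87, adjusted p = 0.264) were not called.

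Day 12 was 1.53 ± 0.27 below day 0 (adjusted p = 0.000299, all 5 mares) and 0.98 ± 0.27 below day 3 (adjusted p = 0.0128, 4 of 5 mares), mare 1 being the exception. Day 16 was 0.98 ± 0.27 above day 3 (adjusted p = 0.0157, all 5 mares). That rise was not called without the day 16 array of mare 4 (0.75, adjusted p = 0.0529), with mare and slide as terms (0.0689), with no arrays of other days (0.0744), or without all arrays of mare 2 (0.0909) or mare 5 (0.0779). The fall from day 3 to day 12 was not called with mare and slide in the model (−0.80, adjusted p = 0.130) or without all arrays of mare 2, 3 or 5 (0.0783 to 0.0875). Day 3 was 0.55 below day 0 (adjusted p = 0.181), which was called without all arrays of mare 4 (−0.76, adjusted p = 0.0469). Mare 4 was the only mare higher at day 3 than at day 0, so leaving it out enlarges this difference by itself. In descending order the days were 16, 0, 3, 12 and 8, and only the step from day 3 to day 12 passed among these neighbours. The rise from day 8 to day 12 was 0.62 (adjusted p = 0.258), with all 5 mares higher at day 12. The other probe of PLA2G4A gave the same 7 calls, for example 2.70 against 2.58 from day 8 to day 16.

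PTGS2 encodes the inducible cyclooxygenase. Its brightest probe, A_69_P000997, read 0.42, 1.36, 1.48, 1.28 and −0.78 in mares 1 to 5 at day 0, and −0.08, 1.31, 0.06, −0.93 and −0.27 at day 3. At days 8 and 12 it read 1.03, 1.10, 0.50, 0.24 and 0.45, then 1.25, 1.12, 1.30, 1.39 and 0.36. At day 16 it read 1.35, 0.12, 0.42, 2.88 and 1.12. The ranges of all 5 days overlapped, and the SD between mares ran from 0.38 at day 8 to 1.08 at day 16. No pair of days was called (adjusted p = 0.109 to 0.931), nor did the F test pass (adjusted p = 0.243). Differences between days of up to 1.16 ± 0.47 (day 3 to day 16) were therefore not called after adjustment over all probes tested. By limma, the unadjusted p was 0.0215 for that pair and 0.0330 for days 3 and 12. Without the day 3 array of mare 2, which was the highest of its day, the rises from day 3 to day 12 (1.39, adjusted p = 0.0426) and to day 16 (1.48, adjusted p = 0.0399) were called, and without all arrays of mare 2 that to day 16 (1.75, adjusted p = 0.0343). Leaving out the highest array of day 3 enlarges these rises by itself, so no conclusion is drawn from them.

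A second PTGS2 probe, A_69_P000996, well above background on all 25 arrays, did pass the F test over the 5 days (adjusted p = 0.0415). It had its lowest mean at day 3 (−2.11 ± 0.76) and its highest at day 16 (0.12 ± 1.72), a difference of 2.23 (adjusted p = 0.0148). The ranges of these days overlapped, and day 16 was higher in 4 of 5 mares, the difference running from −0.73 in mare 2 to 5.44 in mare 4. No result of leaving out arrays is given for this probe. Why it differs from the brightest probe was not tested. The dim probe A_69_P004631 was well above background on 1 of 5 arrays at each of days 0, 3 and 8, on 3 at day 12 and on all 5 at day 16. It entered the test only through day 16, where it read −6.88, −6.58, −5.03, −2.08 and −3.96 in mares 1 to 5, and no test of it is given.

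**Figure D3:**
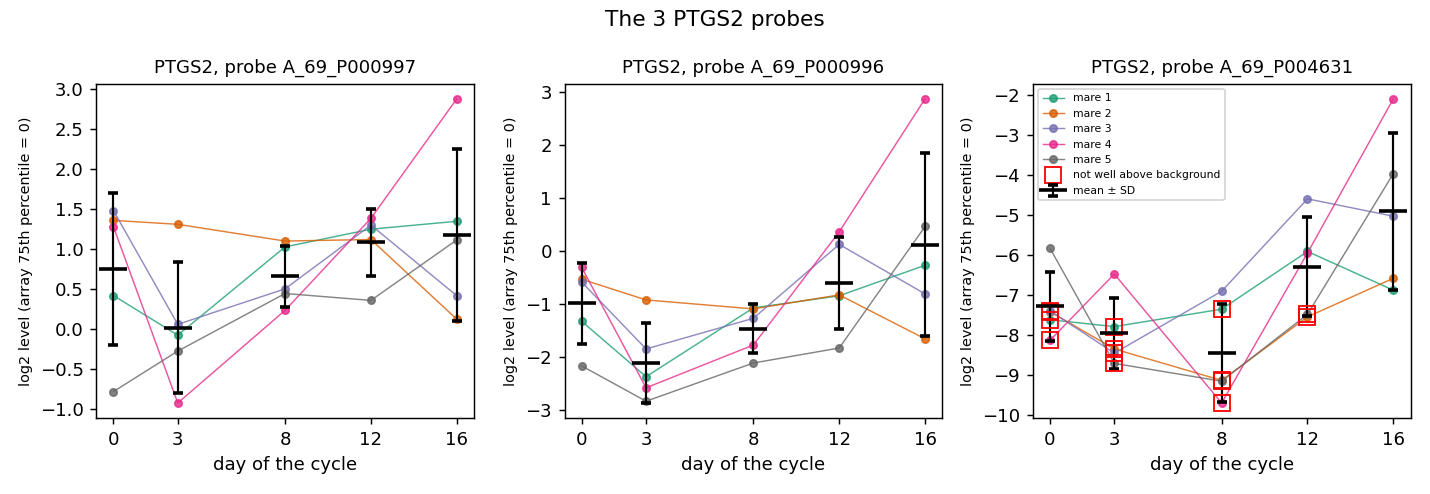
Level of the 3 PTGS2 probes (y axis, log2, with its own scale in each panel) by day (x axis) in the 5 mares, with the mean ± SD in black. Red squares mark arrays on which the probe was not well above background, and at day 16 the array of mare 4 is the highest in each panel.

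PTGES encodes the inducible microsomal prostaglandin E synthase. At day 0 it read 0.76, 0.64, 0.46, −0.65 and 0.41 in mares 1 to 5, below every array of days 3, 8 and 12. It read 1.51, 1.89, 1.90, 1.42 and 1.79 at day 3 and 2.04, 1.95, 1.58, 1.58 and 1.78 at day 8. At day 12 it read 2.21, 2.56, 2.27, 2.36 and 2.39, above every array of days 0, 3 and 8. At day 16 the values spread out to 0.24, 0.91, 1.13, 2.87 and 2.56, mares 4 and 5 lying above all arrays of day 3 and day 8 and mares 1 to 3 below them.

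Over days 0, 3, 8, 12 and 16 its mean was 0.32 ± 0.56, 1.70 ± 0.22, 1.79 ± 0.21, 2.36 ± 0.13 and 1.54 ± 1.13 (SD, n = 5). PTGES was 1.38 ± 0.36 higher at day 3 than at day 0 (2.60-fold, adjusted p = 0.0139), 1.46 ± 0.36 higher at day 8 (adjusted p = 0.00456) and 2.03 ± 0.36 higher at day 12 (4.09-fold, adjusted p = 0.000284). All 5 mares showed each of these rises. Within the 3 slides that held days 0 and 3 the rise was between 1.14 and 2.07. The day 0 arrays had the lowest median signal, and with the 75th percentile of the array as a covariate the rise to day 3 was 0.83 (adjusted p = 0.202), while those to days 8 and 12 were still called. The rise to day 3 was also not called with mare and slide in the model (2.07, adjusted p = 0.0603), or without all arrays of mare 2, 3 or 5 (0.0523 to 0.0716).

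The steps among days 3, 8 and 12 were not called for PTGES (adjusted p = 0.215 to 0.914), although day 12 was higher than day 3 and than day 8 in all 5 mares without overlap of the ranges. With only the 2 compared days in the model, day 12 was called above day 3 (adjusted p = 0.0207) and above day 8 (adjusted p = 0.0386). In descending order the days were 12, 8, 3, 16 and 0. The last step, 1.22 from day 0 to day 16, was called at an adjusted p of 0.0498, with 4 of 5 mares higher. That call held in 12 of 44 alternatives, and not with mare as a block (adjusted p = 0.0555); 3 of the 5 PTGES probes gave it. Day 16 was 0.81 below day 12 (adjusted p = 0.185), a fall that was called without the day 16 array of mare 4 (−1.15, adjusted p = 0.0320) or all arrays of mare 4 (0.0406). That array was the highest of its day, so leaving it out enlarges the fall by itself. No conclusion is drawn from these calls. The 5 probes otherwise gave the same calls, with rises from day 0 to day 8 between 1.46 and 1.54.

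HPGD encodes the dehydrogenase that starts the breakdown of prostaglandins, and had a single probe, well above background on all 25 arrays. It read −3.23, −2.68, −3.34, −3.23 and −2.64 in mares 1 to 5 at day 0 and −5.45, −4.23, −4.17, −3.31 and −4.66 at day 3. It read −3.41, −3.69, −4.33, −3.66 and −3.73 at day 8, and −5.27, −4.39, −4.65, −4.39 and −3.25 at day 12. At day 16 it read −4.79, −4.27, −3.97, −3.85 and −3.81. Day 0 lay above every array of days 8 and 16, and overlapped days 3 and 12 through mare 4 and mare 5 respectively.

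Over the same days the mean of HPGD was −3.02 ± 0.34, −4.36 ± 0.78, −3.77 ± 0.34, −4.39 ± 0.73 and −4.14 ± 0.40 (SD, n = 5). Between days 0 and 3 it fell by 1.34 ± 0.34 (2.53-fold lower, adjusted p = 0.0125) and was 1.37 ± 0.34 lower at day 12 than at day 0 (2.58-fold, adjusted p = 0.00621), in all 5 mares both times. The falls from day 0 to day 8 (−0.74, adjusted p = 0.125) and to day 16 (−1.11, adjusted p = 0.0610, and 0.0314 with mare as a block) were seen in all 5 mares but not called. Both were called with normexp background correction (adjusted p = 0.0421 and 0.00896). Among the neighbours in the order 0, 8, 16, 3 and 12, no step passed. The fall to day 3 was not called after quantile normalization (adjusted p = 0.0527), with slide (0.0585), scan day (0.0506) or mare and slide (0.167) as terms, with no arrays of other days (0.0599), or without all arrays of mare 2 (0.0858) or mare 5 (0.0591). The difference between days 0 and 12 was not called with mare and slide in the model (0.0772) or without all arrays of mare 2 (0.0620). On the 3 slides with arrays of days 0 and 3 the difference was −2.02 to −0.073.

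HPGD had BGN, a matrix proteoglycan, as the named gene most like it, with a Pearson r of 0.77 over the 25 arrays. The stromal genes LUM and DCN also fell from day 0 to day 3, by 1.32 (adjusted p = 0.0162) and 1.09 (adjusted p = 0.00884). These were the tested 2 of 7 stromal fibroblast markers. Over days 0, 3, 8, 12 and 16 the log2 of their summed level ranged from 4.90 to 5.48, 3.11 to 4.65, 3.56 to 4.01, 3.66 to 4.32 and 4.18 to 5.20. Every array of days 3, 8 and 12 was thus below every array of day 0 for this sum. DCN read 4.67 to 5.20 at day 0 and LUM 2.10 to 3.01, so the sum mostly follows DCN. HPGD was called below day 0 at days 3 and 12 but not at day 8, and PLA2G4A at days 8 and 12 but not at day 3. The uncalled differences had the same direction. HPGD was lower at day 8 in 5 mares (−0.74, adjusted p = 0.125), and PLA2G4A was lower at day 3 in 4 mares (−0.55, adjusted p = 0.181). A difference in calls is thus not a difference in time course. At day 16 this sum overlapped day 0, and neither LUM (−0.48, adjusted p = 0.479) nor DCN (−0.38, adjusted p = 0.443) was called against day 0. HPGD was 1.11 lower at day 16 than at day 0, which was not called (adjusted p = 0.0610). PLA2G2A had its highest mean at day 3, where this sum had its lowest array, and was lower than at day 0 at day 12. At day 12 LUM (−2.13, adjusted p = 0.000156) and DCN (−1.03, adjusted p = 0.00732) were also called below day 0. From day 12 to day 16 LUM was called higher (1.64, adjusted p = 0.00399), as PLA2G2A was, and DCN was not called (0.65, adjusted p = 0.148). The tested 1 of 8 epithelial markers, ESRP1, ranged from 2.55 to 3.66, 2.76 to 3.40, 2.73 to 3.04, 3.07 to 3.46 and 2.66 to 3.35 over the same days, and no pair of days was called for it. The part of either in the changes of the 5 genes was not tested.

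PTGES and HPGD, which make and destroy prostaglandin E, moved apart after ovulation in every mare. Their difference within an array does not change when all spots of the array are multiplied by 1 factor, as in the 75th percentile scaling. A shift that depends on signal level would remain in it. The day 0 arrays had the lowest median signal, and the part of this in the ratio was not tested. Relative to the own day 0 of each mare, the log2 ratio of PTGES to HPGD had grown by 2.14 to 3.40 (median 2.80) at day 3 and by 1.46 to 2.66 (median 2.32) at day 8. At day 12 it had grown by 2.59 to 4.17 (median 3.48), and at day 16 by 1.04 to 4.14 (median 1.86). The ratio was above its day 0 value in 5 of 5 mares on each of these days. This is given as a description, since the pair was chosen with both changes known.

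**Figure D4:**
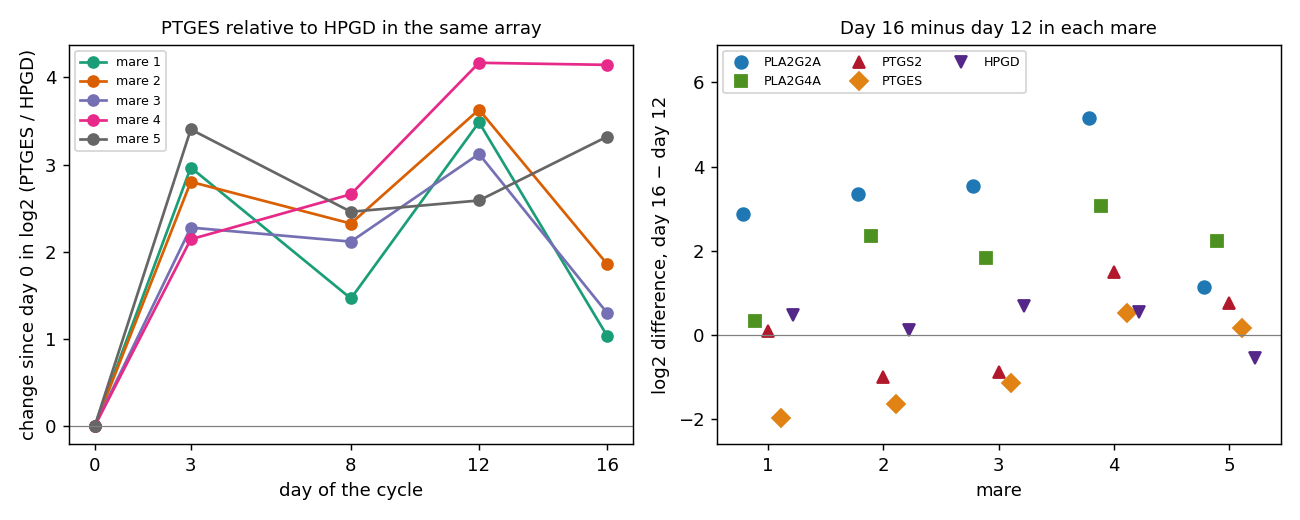
Left, change since day 0 in the log2 ratio of PTGES to HPGD in each of 5 mares (y axis) by day (x axis); all values after day 0 are above 0. Right, log2 difference between day 16 and day 12 (y axis) of each gene in each mare (x axis), where PTGES lies below 0 in mares 1 to 3 and above 0 in mares 4 and 5.

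PTGES and PTGS2 had their widest spread between mares at day 16. From day 12 to day 16, PTGES changed by −1.97, −1.65 and −1.14 in mares 1 to 3 and by 0.52 and 0.17 in mares 4 and 5. PTGS2 was lower at day 16 in mares 2 and 3 and higher in mares 1, 4 and 5, with the largest rise in mare 4. PLA2G2A and PLA2G4A were higher at day 16 in all 5 mares, with the rise of PLA2G4A running from 0.34 in mare 1 to 3.05 in mare 4. IL1RN, the interleukin 1 receptor antagonist that is induced in inflammation, stood at −2.10, −1.95 and −1.92 at day 16 in mares 1 to 3, at 6.08 in mare 4 and at 2.29 in mare 5. On the 20 arrays of the other days it ranged from −3.41 to −1.67. The interleukin 1 receptor gene IL1R2 read −5.74, −5.87, −5.25, −2.95 and −6.16 at day 16 in mares 1 to 5, highest in mare 4 and lowest in mare 5. IL1R1, another receptor gene of interleukin 1, read −3.40, −3.45, −1.87, −2.25 and −4.31, highest in mare 3 and lowest in mare 5. The 75th percentiles of the day 16 arrays of mares 1 to 5 were 875, 2789, 1941, 3701 and 2001. The part of IL1RN or of the signal level in the split of PTGES was not tested.

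With the day 16 arrays of mares 4 and 5 left out, a choice made after seeing these values, the rises of PLA2G2A (3.14, adjusted p = 0.00111) and PLA2G4A (1.66, adjusted p = 0.000445) from day 12 to day 16 were called as before. The rises of PLA2G2A from day 8 (adjusted p = 0.0970) and of PLA2G4A from day 3 (adjusted p = 0.114) to day 16 were not. No test of PTGES is given for these arrays, since they were left out for its high values there.

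Of 71 other genes of prostaglandin signalling and its regulation, 10 had a named and tested probe, and 6 of these passed the F test over the 5 days, against 35.8% of all probes. ANXA1, which encodes an inhibitor of phospholipase A2, had means of 4.37 ± 0.31, 3.30 ± 0.42, 3.40 ± 0.29, 3.89 ± 0.29 and 4.62 ± 0.42 (SD, n = 5) over days 0, 3, 8, 12 and 16. Between days 0 and 3 it fell by 1.06 ± 0.23 (SE, adjusted p = 0.00429), and it was 1.21 ± 0.23 higher at day 16 than at day 8 (adjusted p = 0.000717). ANXA1 was thus low at days 3 and 8, and its mean at day 16 was the highest of the 5 days, as for PLA2G4A.

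PTGER2, a receptor of prostaglandin E, was 2.03 ± 0.39 higher at day 8 (adjusted p = 0.000652) and 1.85 ± 0.39 higher at day 12 (adjusted p = 0.00174) than at day 0, days on which PTGES was also above day 0. PTGFR, the receptor of prostaglandin F, was 1.99 ± 0.41 lower at day 16 than at day 3 (adjusted p = 0.00217). IL1R1, a receptor of interleukin 1, was 1.57 ± 0.43 higher at day 16 than at day 3 (adjusted p = 0.0159). The other 2 that passed the F test were IL1RN (adjusted p = 0.0488) and the oestrogen receptor ESR1 (0.000171). Of the synthases, PTGES3, a cytosolic prostaglandin E synthase and chaperone partner, did not pass (adjusted p = 0.125), nor did PTGDS, a prostaglandin D synthase (0.0628). IL1R2 and TNF did not pass either (adjusted p = 0.0931 and 0.260).

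By pairs of days, 5 of the 10 genes were called between days 3 and 16 (13.8% of all probes), 5 between days 8 and 16 (15.0%) and 3 between days 12 and 16 (8.07%). Against day 0 it was 1 at day 3 (12.7%), 3 at day 8 (21.9%), 2 at day 12 (17.9%) and none at day 16 (4.71%), where limma gave 4 at an unadjusted p under 0.05. It was 1 between days 3 and 8 (13.8%), 1 between days 3 and 12 (17.9%) and none between days 8 and 12 (1.10%), with 2 by limma at an unadjusted p under 0.05. The median difference of the 10 genes from day 12 to day 16 was 0.44, against −0.074 over all probes.

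Among 533 other genes with a symbol, those whose level over the 25 arrays was most like that of each gene were as follows. Those given for PLA2G4A are CD44 (Pearson r = 0.88) and RND3 (0.84), and PLA2G2A was closest to GPCPD1 (0.86), ACLY (0.83) and LOC100033916 (0.81). PTGES was closest to CAV2 (0.82), TGFB1 (0.81) and GPX3 (0.76), and after BGN, HPGD was closest to LOC100066639 (0.73) and CAMK2G (0.72). The closest to PTGS2 were AKR1C1 (0.70), MIP-2BETA (0.67) and ITGAX (0.67), the lowest values of the 5. These correlations share arrays and mares and are a description. Over the 5 day means the same correlations were between 0.66 and 0.98, and only that of AKR1C1 was lower than over the arrays.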

How the data were processed

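Total RNA of 25 biopsies was labelled with Cy3, 1 array per biopsy. The deposited scanner files hold an intensity per spot, from Agilent Feature Extraction 10.7.3.1 per the submitters' processing notes; per the file headers, background was subtracted and spatially detrended within each array. The deposited value table equals these processed intensities on 25 of 25 arrays. Here, log2 of the processed signal was scaled by the 75th percentile over non-control spots, outlier-flagged spots were left out, and spots of a probe were averaged. Probes well above background on at least 4 of 5 arrays of a day were tested (35770 of 43603) with limma 3.58.1 in R 4.3.3, day as the only term and 20 residual degrees of freedom, two-sided, with Benjamini-Hochberg adjustment over all tested probes within each pair of days. A gene is given by its tested probe with the highest mean level.

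Gene names came from unversioned RefSeq accessions (1307 probes, 620 genes); sequences and coordinates were not used here. The genes named are the 5 genes with all their probes, the tested genes of the list of 71, the tested markers where they bear on a result, and per gene the 3 most correlated of 533 other genes, of which 1 is not reported here. Members and lists were chosen with earlier results of these data known. Of 64 markers of 12 cell types, 13 were tested; none of the gland, neutrophil, B and plasma cell or blood markers was. Each mare gave every day, so the labels pair arrays by animal: the median correlation of deviations from the day means was 0.25 over 50 pairs of the same mare (0.12 over the 26 on different slides) and −0.047 over 200 pairs of different mares. Arrays lay on 7 slides scanned on 4 days, and the days of the cycle were not balanced over them. Days 0 and 3 shared 3 slides and 1 scan day. Days 0 and 8 shared 2 slides and 1 scan day, and days 0 and 12 shared 2 slides and 2 scan days. On simulated data for day 3 against day 0 (35770 probes), 34 of 100 probes changed by 1 and 78 of 100 changed by 2 (log2) were called, and 6 unchanged ones. Alternatives were other normalization, background correction (normexp, offset 50), filters, blocks, covariates, probe averaging and leaving out arrays or mares.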

Additional observations from a re-analysis of the deposited data

Results flagged for a closer look

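Within a day, 7 of 80 groups of 5 arrays (16 probes on 5 days) had a highest or lowest array far from the other 4 by Dixon's test, where chance gives about 1 in 20. At day 12 the level of PLA2G4A in mare 1 was −0.40, and the next highest was −1.58. At day 12 the level of PTGS2 in mare 5 was 0.36 on the brightest probe, and the next lowest was 1.12. At day 0 mare 4 was far below the other mares on all 5 PTGES probes, with −0.65, −0.95, −1.05, −0.89 and −1.15; these probes read the same transcript of the same biopsy and count as 1 result. The cause was not tested for any of these.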

How the results depend on the processing

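Of 18 called differences, 8 held in all 44 alternatives: PLA2G2A at day 12 against days 0, 3 and 16, PLA2G4A at day 8 against days 3 and 16 and at day 12 against day 16, and PTGES at days 8 and 12 against day 0. With mare as a replicate block 20 differences were called; it changed the 4 calls given in the report and no other. With mare as a replicate block and slide together 9 were called, and leaving out arrays or mares gave 11 to 20. The F test of HPGD had an adjusted p of 0.100 with mare and slide, and 0.00242 to 0.117 on leaving out arrays or mares, the highest without mare 2. The F test of PTGS2 had an adjusted p of 0.00967 with the mean of its probes, which includes the dim probe A_69_P004631 that was tested only through its high day 16, so this value does not bear on whether PTGS2 changed. No called difference changed direction. Uncalled ones that did were, with mare and slide, PTGS2 from day 0 to day 8 (0.57) and PTGES from day 3 to day 16 (0.017); with the signal level as a covariate, PTGS2 from day 0 to day 8 (0.077) and PLA2G2A from day 0 to day 16 (−0.19); HPGD from day 3 to day 12 with normexp (0.067) or scan day (0.015); and, without the day 16 arrays of mares 4 and 5, PTGS2 at day 16 against day 0 (−0.12), day 8 (−0.033) and day 12 (−0.45). Leaving out arrays or mares moved uncalled differences across 0 as follows. For PLA2G2A, day 3 to day 16 ranged from −0.35 to 0.12. For PTGS2, day 0 to day 8 ranged from −0.47 to 0.15, day 0 to day 12 from −0.053 to 0.51, day 0 to day 16 from −0.0013 to 0.84, day 8 to day 16 from −0.018 to 0.89 and day 12 to day 16 from −0.33 to 0.37. For PTGES, day 3 to day 8 ranged from −0.029 to 0.18, day 3 to day 16 from −0.57 to 0.16 and day 8 to day 16 from −0.63 to 0.15. For HPGD, day 3 to day 12 ranged from −0.39 to 0.24 and day 3 to day 16 from −0.046 to 0.49. The cause of these shifts was not tested. Among the probes of the 5 genes described, signal over background limits only the dim PTGS2 probe A_69_P004631, well above background on 11 of 25 arrays.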

Other observations

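In the RefSeq annotation PTGS2 and PLA2G4A are neighbouring protein-coding genes, while the brightest probe of PTGS2 had no called difference and PLA2G4A had 7. Markers of other cell types also differed between days. TAGLN, the tested 1 of 5 smooth muscle markers, was higher at day 16 than at day 12 (1.46, adjusted p = 0.00498) and ranged from −1.13 to 0.25 at day 16, −2.92 to −1.42 at day 8 and −2.38 to −1.65 at day 12. The log2 of the summed level of CD14 and CD68, the tested 2 of 5 macrophage markers, ranged from −0.15 to 0.31 at day 8, 0.81 to 1.61 at day 12 and 0.60 to 2.36 at day 16. A sum of this kind gives most weight to its brightest probe. CD14 was higher at day 16 than at day 8 (1.18, adjusted p = 0.00468), and CD68 was not called (−0.10, adjusted p = 0.872). The log2 of the summed level of CD2, CCL5 and GNLY, the tested 3 of 8 T and NK cell markers, ranged from −0.77 to −0.090 at day 8, 0.59 to 1.12 at day 12 and 0.69 to 1.23 at day 16. Of these, CCL5 (0.97, adjusted p = 0.0448) and GNLY (1.23, adjusted p = 0.0293) were higher at day 12 than at day 8, and CD2 was not called (0.13, adjusted p = 0.814). By limma, none of these 5 immune markers was called between days 12 and 16 (adjusted p = 0.554 to 0.937, and 0 at an unadjusted p under 0.05). Between days 8 and 16, CCL5 (0.89, adjusted p = 0.0115) and GNLY (1.52, adjusted p = 0.000389) were called higher, as CD14 was, and CD2 was not called (0.086, adjusted p = 0.845). Both phospholipase genes were called higher at day 16 in both of these pairs. TAGLN was too (1.77, adjusted p = 0.000504 from day 8). LUM was called from day 12 to day 16 (1.64, adjusted p = 0.00399) but not from day 8 (0.82, adjusted p = 0.122). DCN was called from day 8 to day 16 (1.04, adjusted p = 0.00840) but not from day 12 (0.65, adjusted p = 0.148). A marker that was not called may still have changed. The part of these cell types in the changes of the 5 genes was not tested.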
